A study of Mus musculus with 14 samples.

Results

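Transcript levels of 10 genes of iron transport and storage, among 55487 genes counted, were followed in bone marrow cells exposed to the inflammatory cytokine IL-1β or to PBS. The genes were chosen by name and all 10 were found: Trf, Tfrc, Steap3 and Slc11a2 of iron uptake, Slc11a1 of phagosomes, Slc25a37 of mitochondria, Fth1 and Ftl1 of ferritin, and Slc40a1 and Cp of iron export. Stem and progenitor populations were sorted by surface markers, LSK cells (Lin-Sca1+c-kit+), which hold the stem cells, and the more mature LK progenitors (Lin-c-kit+), from mice that had received bone marrow carrying 1 mutant and 1 normal Jak2 allele. The mutant allele, Jak2V617F, had been switched on in the donor marrow by Mx1Cre, a Cre recombinase under an interferon-inducible promoter, through pI-pC injection, and the recipients were lethally irradiated C57BL/6 mice. For 16 weeks the recipients were given 3 injections a week of PBS or of 0.5 μg IL-1β, a dose whose unit the labels print as g, and each population has 3 PBS and 2 IL-1β libraries, so the PBS controls carried Jak2V617F too. MSC were wild-type C57BL/6 bone marrow cells grown for 21 days and then kept with PBS (2 libraries) or 5 ng/ml IL-1β (2 libraries) for 72 h.

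Cells take up iron when transferrin (Trf), the iron carrier of plasma, binds the transferrin receptor (Tfrc). In the endosome Steap3 reduces the iron and Slc11a2 (DMT1) carries it out to the cytosol, from where mitoferrin 1 (Slc25a37) brings it into mitochondria for heme. Ferritin, a shell of heavy (Fth1) and light (Ftl1) chains, stores the rest. Ferroportin (Slc40a1) exports iron, ceruloplasmin (Cp) oxidizes it for loading onto transferrin, and Slc11a1 (NRAMP1) moves metal out of macrophage phagosomes. Erythroid precursors use most of the iron of the marrow, and macrophages recycle it from old red cells.

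Several of these transcripts carry iron-responsive elements, short hairpins that iron regulatory proteins bind when iron is low. In a 5′ UTR the element blocks translation, and in the 3′ UTR of Tfrc it protects the transcript, so that the same proteins raise uptake and lower storage and export. The transcripts of GENCODE M21 (genome build GRCm38) were searched on the transcript strand for a hairpin of 17 bases, made of an unpaired C, 5 bases of stem, the loop CAGTGN with a last base other than G, and the 5 bases that pair with the stem (G with T allowed). The sites are shown because uptake, storage and export meet in this element, and 4 of the 10 genes held this exact pattern. The hexamer of the loop is in capitals.
Fth1, 5′ UTR, chr19:9982738-9982754, plus strand: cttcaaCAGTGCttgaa
Ftl1, 5′ UTR, chr7:45459785-45459801, minus strand: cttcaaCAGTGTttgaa
Slc40a1, 5′ UTR, chr1:45925471-45925487, minus strand: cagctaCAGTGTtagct
Tfrc, 3′ UTR, chr16:32631225-32631241, plus strand: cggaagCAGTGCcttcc
Tfrc, 3′ UTR, chr16:32631604-32631620, plus strand: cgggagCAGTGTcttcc
Tfrc, 3′ UTR, chr16:32631669-32631685, plus strand: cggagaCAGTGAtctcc
Tfrc, 3′ UTR, chr16:32631716-32631732, plus strand: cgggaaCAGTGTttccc
The same motif was found in the 5′ UTR of 23 of 20597 genes (0.112%) and in the 3′ UTR of 100 of 20979 genes (0.477%). The pattern allows no bulge or unpaired base in the stem, so elements of another shape are missed. A gene without the pattern may still carry an element. The pattern was not found in the UTRs of the other 6 genes. These lie at chr9:103204001-103230444 (Trf, minus strand), chr1:120190757-120272705 (Steap3, minus), chr15:100387898-100425072 (Slc11a2, minus), chr1:74375195-74386062 (Slc11a1, plus), chr14:69241848-69285112 (Slc25a37, minus) and chr3:19957054-20009145 (Cp, plus). The counts below are of transcripts, so they do not read the block of translation.

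The libraries held 4393233 to 30871055 counted read pairs, and within LSK and within LK cells the IL-1β libraries were all shallower than the PBS libraries, which leaves depth and treatment not to be told apart there. The LSK, LK and MSC counts were deposited in separate tables. Stem and progenitor markers summed to 1416 to 1862 CPM (counts relative to library size, with TMM scaling) in the LSK PBS libraries and to 456 to 624 CPM in the LK PBS libraries. Erythroid markers (14 genes, among them Klf1 and Alas2) summed to 264 to 347 CPM in LSK and to 3194 to 4015 CPM in LK cells under PBS. In the libraries labelled MSC the sum of 14 macrophage markers (13104 and 17288 CPM with PBS) was above that of 14 mesenchymal markers (2792 and 5416 CPM). Of the mesenchymal markers 12 had more than 3 counts in both PBS libraries. Lepr, a marrow stromal marker, was the only one at 0 in both. Among the LSK PBS libraries, replicate 2 stood apart. In bulk RNA, fewer cells of a type and less RNA per cell cannot be told apart. Nothing in the labels says that libraries of a group came from separate animals or cultures, so p-values measure the spread between these libraries.

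On the TPM scale ferritin was the most abundant product of the 10 genes in every group. TPM is a share of all transcripts, corrected with the gene lengths deposited with the counts (3469 bases for Fth1, 1340 for Ftl1). The order and ranks of genes on TPM depend on these lengths. On mean CPM, without this correction, Fth1 was above Ftl1 with PBS in LSK (706 against 646), LK (1309 against 896) and MSC (18744 against 15080). On TPM Ftl1 was at 1598 ± 398 (SD, n = 3) and Fth1 at 697 ± 93.2 in LSK cells with PBS. In LK cells they were at 1901 ± 442 and 1056 ± 179. In MSC with PBS, Ftl1 stood at 33188 ± 7294 (SD, n = 2), rank 1 of 19598 genes above 0, and Fth1 at 16035 ± 710, rank 4. Every MSC library was above every LSK and LK library for both chains. Reads of the pseudogenes named after ferritin came to at most 0.030% of the reads of Fth1 (5 pseudogenes) and 0.287% of those of Ftl1 (3 pseudogenes). Pseudogenes with other names were not looked at. Reads that map to several places were not counted under the default settings. Reads shared by a gene and its pseudogene are thus lost from both, and these shares cannot show how many were lost.

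The order of the other genes differed between the populations. In LSK cells with PBS the order after ferritin was Trf (180 TPM ± 29.9), Tfrc (142 ± 52.6), Slc25a37 (39.1 ± 2.48), Steap3 (33.7 ± 13.96), Slc11a2 (17.9 ± 7.42), Slc40a1 (2.65 ± 0.190), Slc11a1 (1.28 ± 1.75) and Cp (0.276 ± 0.107; SD, n = 3 throughout). The libraries overlapped between Trf and Tfrc, between Slc25a37 and Steap3, between Steap3 and Slc11a2, and between the last 3 genes, so these neighbours in the order were not separated. In LK cells with PBS, Tfrc (529 ± 94.7) came directly after ferritin, followed by Steap3 (130 ± 22.8), Slc11a2 (65.5 ± 18.9), Slc25a37 (52.1 ± 28.2), Trf (50.4 ± 25.2) and Slc40a1 (30.8 ± 8.89), with Slc11a1 (0.335 ± 0.0350) and Cp (0.0835 ± 0.0557) far below. Slc11a2, Slc25a37, Trf and Slc40a1 overlapped with their neighbours in this order. The transferrin receptor was rank 1143 of 20526 genes above 0 in LSK cells and rank 201 of 21435 in LK cells.

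In MSC with PBS the order after ferritin was Trf (746 TPM ± 55.6, SD, n = 2), Slc11a1 (233 ± 23.4), Tfrc (51.0 ± 35.8), Slc11a2 (45.3 ± 0.627), Steap3 (38.1 ± 7.12), Slc40a1 (33.6 ± 11.7), Slc25a37 (17.2 ± 1.19) and Cp (4.45 ± 1.79). Slc11a1, the phagosomal transporter, was at 217 and 250 TPM in these libraries and at no more than 3.28 TPM in any LSK or LK library. Tfrc overlapped with Slc11a2, and Steap3 with Slc40a1. With IL-1β Cp moved from the last place to 28.3 ± 1.09 TPM, above Slc25a37 (27.0 ± 1.67), with which it overlapped, and Steap3 (23.3 ± 1.91), and Slc11a1 was at 393 ± 13.3. In LSK cells with IL-1β, Tfrc (154 ± 40.6) came before Trf (111 ± 5.25), and in LK cells the first places were again those of Ftl1 (2197 ± 94.6), Fth1 (888 ± 70.8), Tfrc (435 ± 3.97) and Steap3 (99.4 ± 12.2; SD, n = 2 throughout). TPM levels set across the separately deposited tables are a description, and LK and LSK cells were tested against each other on the raw counts below.

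**Figure D1:**
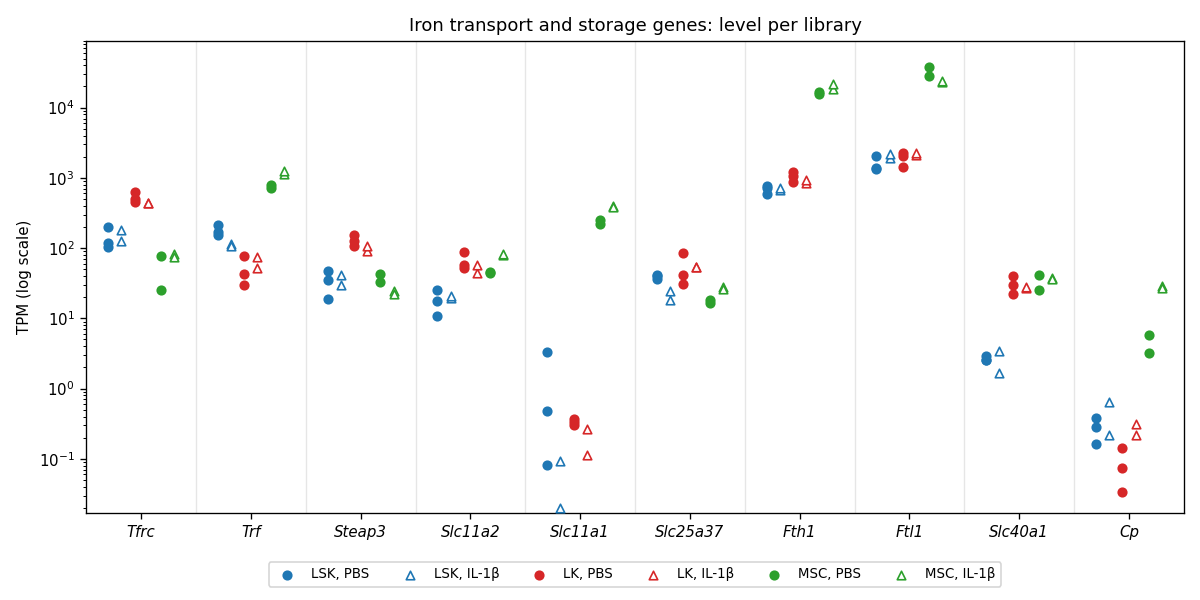
Level of each of the 10 genes in each of the 14 libraries, in TPM on a log axis. Each point is 1 library, filled circles are PBS and open triangles IL-1β, and the LSK IL-1β library with no Slc11a1 read is drawn at the bottom of the axis. Ftl1 and Fth1 lie above the other genes in every population, Slc11a1 is high in MSC (217 TPM or more) and low in LSK and LK cells, and Tfrc, Steap3, Slc11a2 and Slc40a1 are higher in LK than in LSK cells with PBS.

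The transferrin uptake route and the iron exporter were higher in LK than in LSK cells with PBS, and transferrin itself was lower. In edgeR (quasi-likelihood test, p adjusted by Benjamini-Hochberg) 8 of the 10 genes had enough counts to be tested, of which 5 were called higher in LK cells (Slc40a1, Steap3, Tfrc, Slc11a2 and Fth1) and 1 lower (Trf). Calls required an adjusted p below 0.05 together with a log2 fold change of more than 0.5 either way. Over all 12737 genes tested, 31.2% were called, 12.8% higher and 18.4% lower. The median difference on the log2 scale was 1.57 over the 8 genes and -0.04 over all genes. Slc11a1 and Cp were not tested.

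Tfrc was at 314, 216 and 221 CPM in LSK PBS replicates 1, 2 and 3, and at 1409, 1144 and 968 CPM in the LK PBS replicates. The lowest LK library was above 3 times the highest LSK library, and the log2 fold change was 2.26 ± 0.22 (SE, edgeR adjusted p = 0.000335). Steap3, the endosomal reductase, was at 67.7, 37.0 and 59.4 CPM in LSK and at 310, 255 and 230 CPM in LK cells. Slc11a2, which empties the endosome of iron, was at 40.8, 22.9 and 33.3 CPM in LSK and at 168, 161 and 113 CPM in LK cells. For both genes all LK libraries were above all LSK libraries, with log2 fold changes of 2.31 ± 0.24 for Steap3 (edgeR adjusted p = 0.000414) and 2.22 ± 0.25 for Slc11a2 (edgeR adjusted p = 0.000559).

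Among the 8 genes the largest difference was that of ferroportin. Slc40a1 was at 6.51, 7.67 and 6.87 CPM in LSK and at 102, 106 and 83.9 CPM in LK cells, a log2 fold change of 3.82 ± 0.19 (edgeR adjusted p = 8.28e-05), or 13.8-fold between the group means. Trf went the other way, with 143, 239 and 153 CPM in LSK and 49.7, 41.6 and 81.9 CPM in LK cells (log2 fold change -1.59 ± 0.30, edgeR adjusted p = 0.00483). The highest LK library (replicate 3) was still below the lowest LSK library.

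The ferritin chains and mitoferrin differed less. Fth1 was at 680, 696 and 742 CPM in LSK and at 1525, 1245 and 1159 CPM in LK cells, without overlap (log2 fold change 0.92 ± 0.17, edgeR adjusted p = 0.00476). Ftl1 overlapped between the populations because LSK PBS replicate 2 (930 CPM) lay within the LK range of 849 to 952 CPM, while the other LSK libraries were at 469 and 539 CPM. Its log2 fold change was 0.50 ± 0.26 (edgeR adjusted p = 0.172), and without that LSK library Ftl1 was called as a seventh gene. In that fit 4965 genes were called over all, against 3980 with all libraries. Slc25a37 was at 62.3, 81.2 and 65.2 CPM in LSK and at 124, 148 and 58.7 CPM in LK cells. LK PBS replicate 3 lay below all LSK libraries, the log2 fold change was 0.70 ± 0.30 (edgeR adjusted p = 0.114), and Slc25a37 was called when this library was left out. Over all genes the fit without this library called 3233. In all, 5 of the 8 genes were higher and 1 lower without overlap, against 50.2% of all genes without overlap (22.8% higher, 27.3% lower).

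Marker genes of several lineages differed in the same comparison. Of the 14 erythroid markers 13 were called higher in LK cells, with a median log2 fold change of 3.51, and none was called lower. Of the neutrophil granule genes 4 of 5 tested were called higher, while 7 of 7 stem and progenitor markers and 4 of 6 megakaryocyte markers were called lower. The part of these groups in the difference of the iron genes was not tested. Of 46 other iron genes 31 were tested, 9 were called higher and 4 lower. Among the largest differences were those of Erfe (log2 fold change 4.36), the erythroid hormone that lowers hepcidin, Slc39a8 (1.75), a metal importer, the mitochondrial transporter Abcb10 (1.60) and the hemoglobin scavenger Hp (1.34). Tfr2, a second transferrin receptor, was higher by 1.14 and Aco1, which doubles as iron regulatory protein, by 0.64. The genes called lower were Slc39a14 (-1.78), Ncoa4 (-0.97), the receptor that carries ferritin to lysosomes, Hmox2 (-0.87) and Bach1 (-0.67). Ireb2, the other iron regulatory protein, was not called (log2 fold change -0.21).

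**Figure D2:**
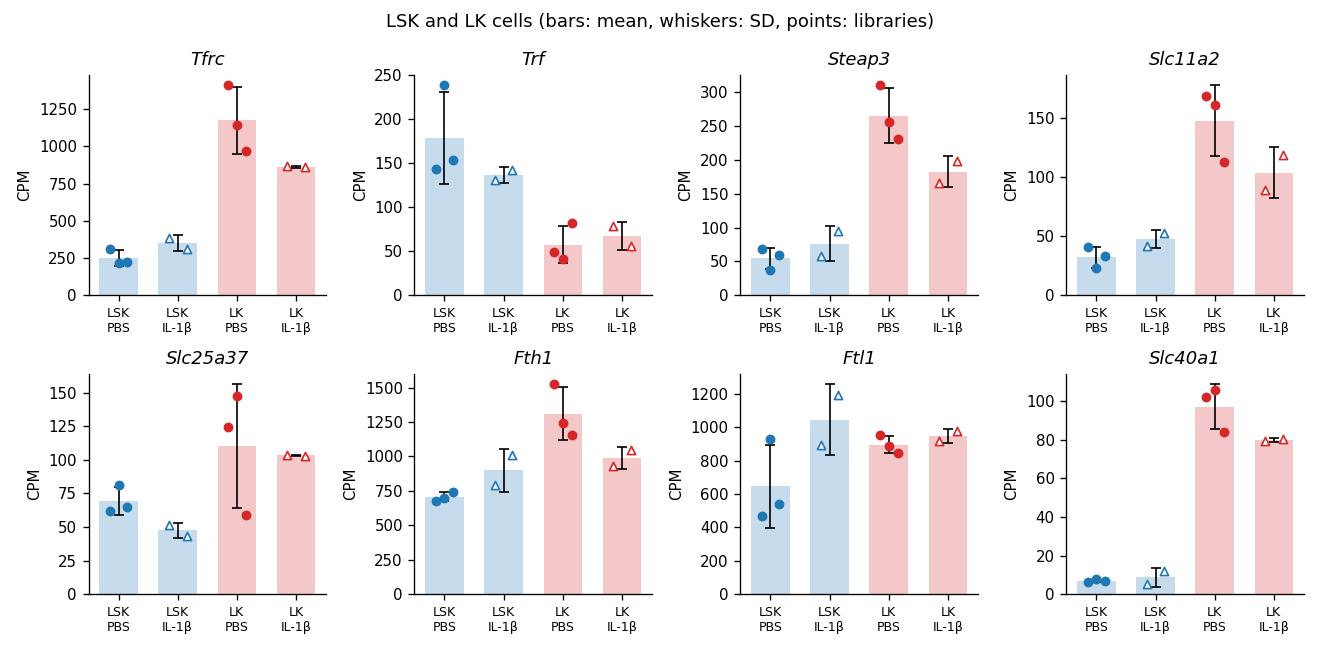
CPM of the 8 genes tested in LSK and LK cells, 1 panel per gene, with bars for the mean, whiskers for the SD and a point per library (3 with PBS, 2 with IL-1β in each population). Tfrc, Steap3, Slc11a2 and Slc40a1 are low in LSK and high in LK cells in every library, Trf is the reverse, and in LK cells the IL-1β points of Tfrc, Steap3, Fth1 and Slc40a1 lie under all PBS points.

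With IL-1β the difference between LK and LSK cells had the same direction for Slc40a1, Tfrc, Steap3, Slc11a2 and Trf. These 5 genes and Slc25a37 were called in the 2 libraries against 2, where 8.32% of 11743 genes were called (4.14% higher, 4.18% lower). Slc40a1 was at 5.21 and 12.3 CPM in LSK and at 79.2 and 80.6 CPM in LK cells (log2 fold change 3.27 ± 0.37, edgeR adjusted p = 0.00845). Tfrc was at 388 and 311 CPM in LSK and at 869 and 859 CPM in LK cells (1.30 ± 0.19, adjusted p = 0.0146). The populations did not overlap for either gene. The log2 fold change was 1.27 for Steap3 (edgeR adjusted p = 0.0336), 1.13 for Slc11a2 (0.0346), 1.11 for Slc25a37 (0.0235) and -1.02 for Trf (0.0390).

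Fth1 and Ftl1 were not called under IL-1β, with log2 fold changes of 0.14 ± 0.19 and -0.14 ± 0.20. The median was 1.12 over the 8 genes tested and 0.02 over all genes. The 5 genes called higher and Trf did not overlap between the populations, where 59.5% of all genes did not overlap (31.2% higher, 28.3% lower). The call of 6 genes fell to 3 (Tfrc, Slc40a1 and Steap3) in a joint fit of the 10 libraries, where calls over all genes fell from 977 to 609. It also fell without either LK IL-1β library, which leaves 1 library in a group, as did the count over all genes. Of the other iron genes Erfe (2.71), Pcbp2 (1.21), an iron chaperone, and Abcb10 (0.98) were called higher and Hmox2 (-0.88) lower among 29 tested.

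In LSK cells no iron transport or storage gene was called between IL-1β and PBS. Of the 9 genes tested 7 had a log2 fold change above 0, none had an unadjusted p under 0.05, and the median was 0.51 against -0.06 over all genes. Of all 13132 genes tested 0.632% were called and 18.5% had an unadjusted p under 0.05, and every other fit of these libraries, DESeq2 and limma-voom included, also called 0 of the members. The biological coefficient of variation was 0.377, the highest of the comparisons.

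Tfrc in LSK cells stood at 388 and 311 CPM with IL-1β against 314, 216 and 221 CPM with PBS, so that 1 PBS library lay between the IL-1β libraries (log2 fold change 0.53 ± 0.26, edgeR adjusted p = 0.304). Ftl1 was at 894 and 1196 CPM with IL-1β and at 469, 930 and 539 CPM with PBS (0.72 ± 0.34, adjusted p = 0.289), where PBS replicate 2 was again the high one. Fth1 (790 and 1010 CPM against 680 to 742) and Slc11a2 (42.0 and 53.2 CPM against 22.9 to 40.8) were above all PBS libraries. Slc25a37 (51.3 and 43.6 CPM against 62.3 to 81.2) and Trf (131 and 143 CPM against 143 to 239) were below all of them, Trf narrowly. In total 2 of the 9 genes were higher and 2 lower without overlap on CPM, where 39.5% of all genes did not overlap (16.7% higher, 22.8% lower). Tfrc, Ftl1, Steap3, Slc40a1 and Cp overlapped. On TPM Fth1 (662 and 723 with IL-1β, 595 to 778 with PBS) and Slc11a2 (19.2 and 20.8, 10.7 to 25.5) overlapped too. Trf and Slc25a37 did not.

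Marker genes moved with the treatment in LSK cells too. The 7 neutrophil granule genes tested were all higher without overlap and 3 were called, the sum of the list going from 2180 to 3169 CPM with PBS to 9624 and 11474 CPM with IL-1β. The 7 stem and progenitor markers were all lower without overlap and 2 were called, the sum going from 1416 to 1862 CPM to 913 and 816 CPM. Erythroid markers split the 2 IL-1β libraries, with sums of 153 and 491 CPM in replicates 1 and 2 against 264 to 347 CPM with PBS. Of the 12 erythroid markers tested 0 were called. The same 2 libraries enter the comparison with LK cells under IL-1β and the interaction. The part of these markers in the values of the iron genes was not tested.

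Slc11a1 could not be tested in LSK or LK cells. It had 1, 53 and 9 counts in LSK PBS replicates 1 to 3 and 1 and 0 counts with IL-1β, so nearly all its reads came from 1 library. In LK cells it had 6 to 7 counts with PBS and 1 and 2 with IL-1β. Cp had 8 to 12 counts in the LSK PBS libraries and 2 to 6 in the LK PBS libraries, which is too few to describe a change.

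In LK cells no gene of the 8 tested was called between IL-1β and PBS. The unadjusted p was under 0.05 for 4 genes, the receptor Tfrc, the endosomal Steap3 and Slc11a2, and the ferritin chain Fth1, all with a log2 fold change below 0. Of all 12835 genes 9.34% were called (6.77% higher, 2.57% lower) and 24.7% had an unadjusted p under 0.05. The median was -0.34 over the 8 genes and -0.03 over all genes.

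Steap3 was at 166 and 198 CPM with IL-1β and at 310, 255 and 230 CPM with PBS, without overlap, and came nearest to a call (log2 fold change -0.54 ± 0.15, edgeR adjusted p = 0.0548). Fth1 was at 932 and 1045 CPM with IL-1β, under PBS levels of 1525, 1245 and 1159 CPM (-0.40 ± 0.14, adjusted p = 0.114). Tfrc was at 869 and 859 CPM, under PBS levels of 1409, 1144 and 968 CPM (-0.44 ± 0.16, adjusted p = 0.126). Slc40a1 was also below all PBS libraries, at 79.2 and 80.6 CPM against 83.9 to 106 CPM (-0.28 ± 0.12, adjusted p = 0.206). On CPM these 4 genes were lower without overlap and none was higher, where 45.8% of all genes did not overlap (22.4% lower, 23.4% higher). On TPM only Tfrc among them stayed without overlap. Steap3 (90.8 and 108.1 with IL-1β, 107.8 to 153 with PBS), Fth1 (838 and 938, 874 to 1231) and Slc40a1 (27.4 and 27.9, 22.6 to 40.2) overlapped.

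Slc11a2 overlapped, at 88.8 and 119 CPM with IL-1β against 168, 161 and 113 CPM with PBS (log2 fold change -0.51 ± 0.20, edgeR adjusted p = 0.175). Ftl1 was nearly level, at 915 and 975 CPM against 849 to 952 CPM (0.08 ± 0.10). The LK PBS libraries differed among themselves. On CPM replicate 3 was the lowest of them for Tfrc, Steap3, Slc11a2, Fth1, Ftl1, Slc40a1 and Slc25a37 and the highest for Trf. On TPM replicate 1 was the lowest for Tfrc, Steap3, Slc11a2, Fth1, Ftl1 and Slc40a1. Without replicate 3 Tfrc, Slc11a2 and Steap3 were called lower and Trf higher, while calls over all genes went from 1199 to 2409. DESeq2 (1536 calls over all genes) and upper-quartile factors (1209) called Steap3, and a fit without the filter on low counts (1844) called Slc11a2 and Steap3. With the replicate number as a block (2331), Tfrc, Slc11a2 and Steap3 were called lower and Trf higher. The labels do not say that same-numbered libraries are paired.

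Marker genes moved with the treatment in LK cells. All 14 erythroid markers had a log2 fold change below 0 and 5 were called lower, their summed level going from 3194 to 4015 CPM with PBS to 2002 and 2291 CPM with IL-1β. Of 8 neutrophil granule genes 6 were called higher, the sum going from 4435 to 9604 CPM to 18172 and 21230 CPM, and LK PBS replicate 3 had the highest sum of the PBS libraries. The part of either group in the values of the iron genes was not tested.

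Calls under IL-1β in LSK and LK cells were found among 46 other iron genes. In LSK cells Lcn2 (6.71), a siderophore-binding protein of the acute phase, and Hp (3.62) were called higher among 31 other iron genes tested, and none was called lower. In LK cells Lcn2 (5.65), Hp (2.74), Hfe (1.89), a partner of the transferrin receptor, Ncoa4 (1.24) and Bach1 (0.56), a repressor of heme-responsive genes, were called higher, and of the 31 tested 5 were called higher and 1 lower in all. Ncoa4 was at 231 and 203 CPM with IL-1β in LK cells, above PBS levels of 78.6, 81.1 and 117 CPM (edgeR adjusted p = 0.00770). Tfr2 in LK cells had a log2 fold change of -0.56 ± 0.16 (edgeR adjusted p = 0.0657). Aco1, Ireb2 and Hmox1 were not called in LSK or LK cells, and Hamp, which encodes hepcidin, had no read in LSK cells and at most 0.0798 CPM in LK cells.

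The difference between the responses of LK and LSK cells was tested directly as an interaction over the 10 libraries. None of the 9 genes tested passed the adjustment, as did only 4 of 13839 genes (0.0289%). The unadjusted p was under 0.05 for 4 genes, against 14.2% of all genes, and these were Slc11a2 (-1.06 ± 0.38), Steap3 (-1.01 ± 0.39), Tfrc (-0.92 ± 0.32) and Fth1 (-0.76 ± 0.27), each on the log2 scale and each with a higher estimate in LSK than in LK cells. Their edgeR adjusted p lay between 0.245 for Tfrc and 0.282 for Steap3. A fit without the filter on low counts called Slc11a2 and Steap3, while calls over all genes went from 4 to 398. The median was -0.62 over the 9 genes and 0.12 over all genes. Of the other iron genes Ncoa4 had an interaction of 1.61 ± 0.31 (edgeR adjusted p = 0.110).

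In cultured MSC, IL-1β went with higher Cp, Slc11a2, Slc11a1, Trf and Slc25a37. All 10 genes were tested, these 5 were called higher and none lower, where 11.4% of 13239 genes were called (7.14% higher, 4.31% lower). The median difference on the log2 scale was 0.66 over the 10 genes and 0.00 over all genes. Cp had the largest change, from 17.8 and 10.6 CPM under PBS to 92.8 and 90.5 CPM under IL-1β (log2 fold change 2.74 ± 0.23, edgeR adjusted p = 0.00365). Its group means differed 6.44-fold.

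Slc11a2 was at 92.9 and 101 CPM with PBS and at 168 and 182 CPM with IL-1β (log2 fold change 0.85 ± 0.11, edgeR adjusted p = 0.0102). Its phagosomal relative Slc11a1 was at 302 and 280 CPM with PBS and at 498 and 489 CPM with IL-1β (0.76 ± 0.11, adjusted p = 0.0129). Trf was at 850 and 818 CPM with PBS and at 1272 and 1424 CPM with IL-1β (0.69 ± 0.12, adjusted p = 0.0215). Slc25a37 followed with 32.2 and 38.0 CPM against 56.7 and 53.6 CPM (0.65 ± 0.12, adjusted p = 0.0302). For each of these genes the IL-1β pair exceeded the PBS pair, and its members were close to each other.

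**Figure D3:**
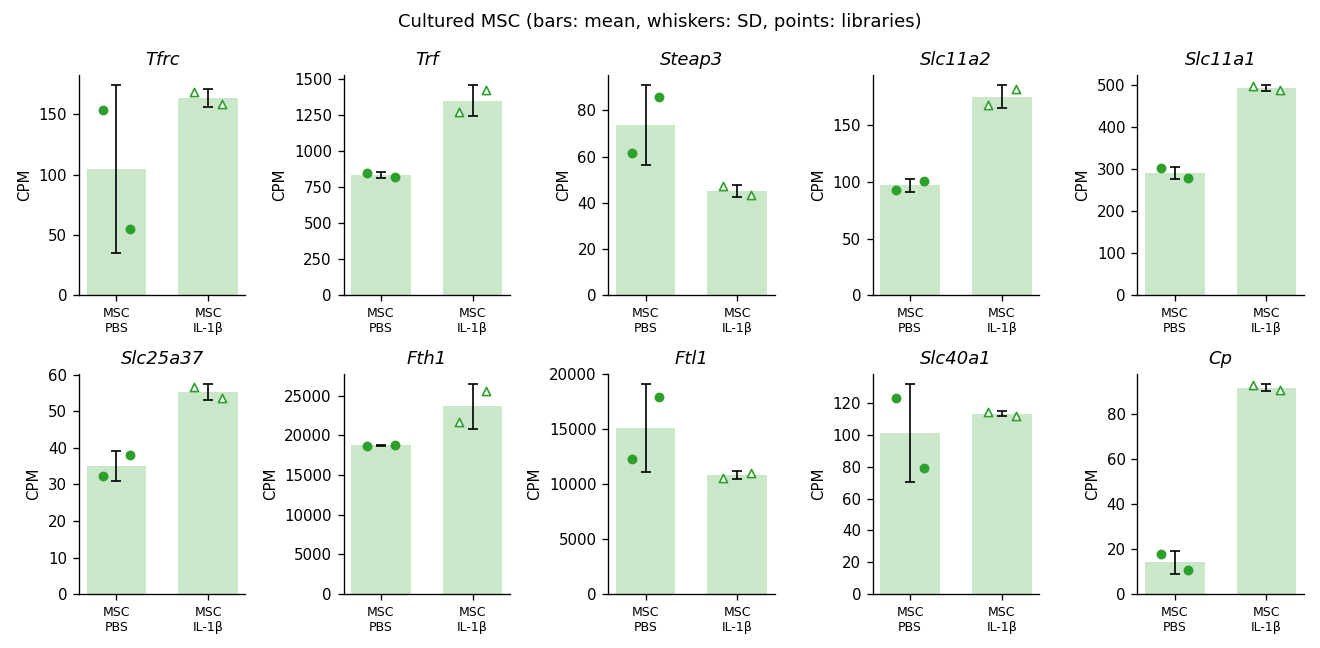
CPM of the 10 genes in MSC, 1 panel per gene, with bars for the mean of 2 libraries, whiskers for the SD and points for the libraries. Cp, Slc11a2, Slc11a1, Trf and Slc25a37 are higher with IL-1β in both libraries, and the PBS libraries of Tfrc (154 and 55.4 CPM) stand far apart.

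Ferritin, Steap3, Tfrc and ferroportin were not called in MSC. Steap3 was at 61.5 and 85.9 CPM with PBS and at 47.1 and 43.2 CPM with IL-1β (log2 fold change -0.71 ± 0.17, edgeR adjusted p = 0.0519), and it was called lower by DESeq2, limma-voom, upper-quartile factors and the fit with no filter. Fth1 was at 18700 and 18787 CPM with PBS and at 21674 and 25628 CPM with IL-1β (0.34 ± 0.14, adjusted p = 0.175). Ftl1 was at 12244 and 17916 CPM with PBS and at 10541 and 11056 CPM with IL-1β (-0.48 ± 0.20, adjusted p = 0.175). The heavy chain was above and the light chain below both PBS libraries. Tfrc had a log2 fold change of 0.67 ± 0.50 and Slc40a1 of 0.17 ± 0.21, and for both genes PBS replicate 3 (55.4 CPM for Tfrc, 79.5 CPM for Slc40a1) was far under replicate 2 (154 and 123 CPM). Over the 10 genes 7 were higher and 2 lower without overlap on CPM, where 61.2% of all genes did not overlap (31.3% higher, 29.8% lower). On TPM Tfrc, 1 of the 7, overlapped (76.2 and 25.7 with PBS, 81.7 and 74.3 with IL-1β).

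The count of calls in MSC rested on single libraries, as did the count over all genes. In each of the 4 fits with 1 library left out, a group has 1 library, so only their effect sizes are given here. Over these 4 fits the log2 fold change of the 5 genes called with all libraries stayed between 2.37 and 3.12 for Cp, 0.78 and 0.92 for Slc11a2, 0.71 and 0.83 for Slc11a1, 0.60 and 0.78 for Trf, and 0.55 and 0.79 for Slc25a37.

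Macrophage markers moved with the treatment in these cultures. Of 14 macrophage markers 13 were tested and 9 were called higher, while Vsig4 was at 0 in the PBS libraries. The sum of the 14 went from 13104 and 17288 CPM with PBS to 33977 and 34942 CPM with IL-1β. Within it Lyz2 went from 7133 and 4803 CPM to 19873 and 20803 CPM. Of the 13 tested, 12 were higher without overlap and Cd68 was lower, with 1520 and 1089 CPM under PBS and 1011 and 867 CPM under IL-1β. Of 14 mesenchymal markers 13 were tested and 1 was called, and their sum went from 2792 and 5416 CPM to 5618 and 6262 CPM. The part of the macrophage markers in the values of Slc11a1 and the other iron genes was not tested. Of 33 other iron genes tested 7 were called higher and none lower. They were Lcn2 (6.07), Hp (5.22), the metalloreductase Steap4 (4.80), the importer Slc39a14 (1.18), Hfe (1.08), the heme-degrading enzyme Hmox1 (0.83), and Fbxl5 (0.51), which marks iron regulatory protein for degradation. Ncoa4 (0.86, edgeR adjusted p = 0.156), Tfr2 (2.72, adjusted p = 0.176), Aco1 (0.27) and Ireb2 (0.10) were not called.

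**Figure D4:**
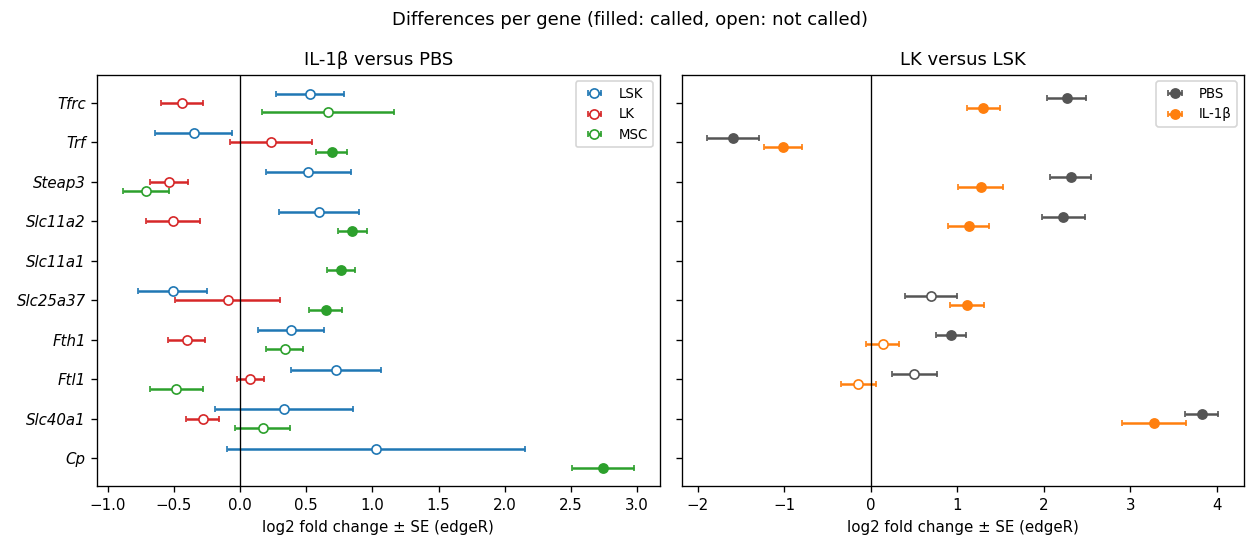
Log2 fold change with its standard error from edgeR for each gene, IL-1β against PBS in LSK, LK and MSC on the left and LK against LSK under each treatment on the right, with filled points for called genes. On the left the filled points are the 5 genes called in MSC, Cp the largest at 2.74, and on the right Slc40a1, Tfrc, Steap3, Slc11a2 and Trf are filled under both treatments.

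The balance of the ferritin chains was read as the ratio of Fth1 to Ftl1 TPM within each library, where scaling between libraries cancels. The size of the ratio depends on the gene lengths used, so only its differences between libraries are read. In LK cells it was 0.619, 0.541 and 0.527 under PBS against 0.393 and 0.414 under IL-1β, without overlap. In MSC it was 0.590 and 0.405 under PBS against 0.794 and 0.895 under IL-1β, without overlap and in the other direction. In LSK cells it was 0.560, 0.289 and 0.532 under PBS against 0.342 and 0.326 under IL-1β, PBS replicate 2 being the lowest of all. The two-sided exact permutation test gave p = 0.2 for LK cells and p = 0.333 for MSC, which are the smallest p these designs can give, and p = 0.6 for LSK cells. The ratio was chosen after the values of the 2 genes were seen.

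**Figure D5:**
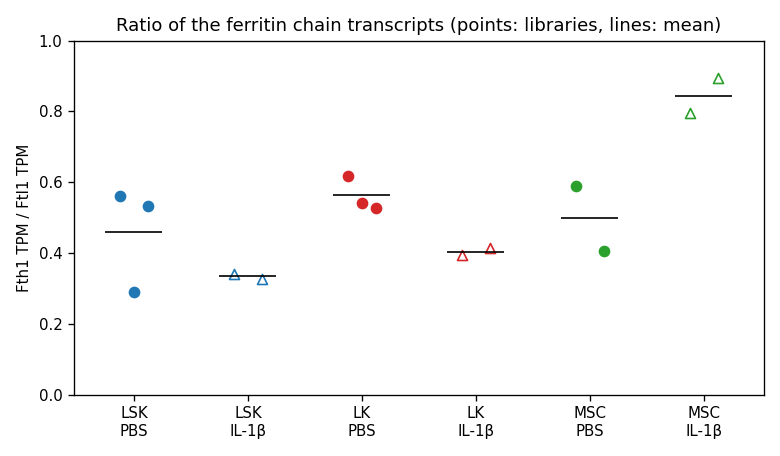
Ratio of Fth1 to Ftl1 TPM in each of the 14 libraries, 1 column per group, with a point per library and a line at the mean. The ratio is lower with IL-1β in LK cells (0.393 and 0.414 against 0.527 to 0.619) and higher in MSC (0.794 and 0.895 against 0.405 and 0.590), and LSK PBS replicate 2 (0.289) lies below the other LSK libraries.

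Genes whose level followed the iron genes across the 10 LSK and LK libraries were named by Pearson's r on log2 CPM among 9172 genes, as a description in which the libraries share population and depth. For Tfrc the nearest were Dpy19l1 (r = 0.99), Hacd3 (0.99) and Slc39a8 (0.98). For Slc40a1 they were Cpox (0.99), an enzyme of heme synthesis, the red cell antigen Kel (0.99) and C1qtnf12 (0.99). Slc25a37 had lower values, with Dclre1c (0.95), Kcnq1ot1 (0.94) and Plpbp (0.93). Tfrc and Slc40a1 vary mainly between LSK and LK cells, as do the genes listed for them, and comparisons of treatment and of population use the same PBS libraries.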

How the data were processed

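RNA of LSK, LK and MSC libraries had been prepared with rRNA depletion. The authors deposited raw counts of read pairs per gene in separate tables for each population. Per the labels, reads were trimmed with fastp 0.20.0, aligned with HISAT2 2.0.1 to GRCm38, handled with SAMtools 1.10 and counted with featureCounts 2.0.2 in reverse-stranded mode on Ensembl release 100. The methods name Genomic Alignments and DESeq2. Symbols were taken from GENCODE M21 (55141 of 55487 identifiers). An IL-1β-treated MSC library named in a header was not analysed here.

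Tests of the counts were run with edgeR 4.0.16 under R 4.3.3 (filterByExpr, TMM scaling, robust glmQLFit, glmQLFTest) with Benjamini-Hochberg adjustment over all genes tested. CPM was computed after TMM over the 10 LSK and LK libraries together and over the MSC libraries alone, and TPM from the counts and the gene lengths of the tables. Alternatives were the tools DESeq2 1.42.0 and limma-voom (limma 3.58.1), other scaling (size factors of DESeq2, upper quartile), other filters (none, or 10 reads in 2 libraries), calls by adjusted p alone, all 10 LSK and LK libraries in 1 fit, a block for the replicate number, and leaving out each library. Figures were drawn with matplotlib 3.10.9.

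The 10 genes and the lists of other iron genes and markers were chosen with earlier results of these data known. Named are all 10 genes, up to 5 other iron genes called per comparison and direction, Tfr2, Hmox1, Hamp, Ireb2, Aco1 and Ncoa4, and the 3 genes most alike to Tfrc, Slc25a37 and Slc40a1 (mean of at least 3 log2 CPM). Fbxl5 in MSC was named after its value was seen. A gene that this rule names is not reported here.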

Additional observations from a re-analysis of the deposited data

Results flagged for a closer look

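For 4 genes every IL-1β library lay on one side of the PBS libraries in MSC and on the opposite side in LSK or LK cells, and the difference between the populations was not tested. Tfrc had a log2 fold change of -0.44 in LK cells and 0.67 in MSC, and Fth1 of -0.40 in LK cells and 0.34 in MSC. In LSK cells and MSC the values were -0.35 and 0.69 for Trf, and -0.51 and 0.65 for Slc25a37. The sides were close for Tfrc in MSC, with the lower IL-1β library at 158 CPM and the higher PBS library at 154 CPM. For Trf in LSK cells they nearly met, with the higher IL-1β library at 142.9 CPM and the lowest PBS library at 143.3 CPM. Such opposite sides were found for 2 of 8 genes between LK cells and MSC, against 1359 of 11358 genes tested in both, and for 2 of 9 between LSK cells and MSC, against 1981 of 11566 (17.1%). Whether the iron genes differ from all genes in this was not tested. Of the log2 fold changes above only those of Trf and Slc25a37 in MSC were called. MSC were treated in culture for 72 h and the LSK and LK cells in mice for 16 weeks.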

How the results depend on the processing

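The calls of LK against LSK cells under PBS kept their count of 6 in every fit of all libraries, and gave 6 to 7 with each library left out. In LSK cells 0 of the 10 genes were called in every fit. In LK cells IL-1β against PBS gave 0 calls, 1 with DESeq2, 1 with upper-quartile factors, 2 with no filter on low counts, and 0 to 4 with each library left out. In MSC the count of 5 ranged from 0 to 9 with each library left out, and from 5 to 6 otherwise. Under IL-1β the count of 6 between LK and LSK cells was 3 in the joint fit and 2 to 6 with each library left out. The interaction gave 0, and 2 with no filter. The lone library of a group was assumed to vary like the others. The mean log2 TPM of Slc25a37 in MSC minus that in LSK cells under PBS was -1.18, and -0.98 on CPM. The cause of these changes was not tested.

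Of 724 log2 fold changes of the 10 genes under alternatives 670 kept direction and side of the threshold, 24 came to pass it, 19 no longer passed it and 11 changed sign. None of those that changed sign was called. With each library left out, their ranges in LSK cells were -0.36 to 0.82 for Slc40a1 and -0.037 to 1.69 for Cp (lowest without IL-1β replicate 2). In LK cells they were -0.044 (without IL-1β replicate 1) to 0.58 for Trf and -0.39 to 0.18 for Slc25a37, which was also at 0.0055 with limma-voom and at 0.0037 without PBS replicate 1. In MSC Slc40a1 lay between -0.11 (without PBS replicate 3) and 0.52. Between LK and LSK cells under IL-1β the ranges were -0.048 (without LSK IL-1β replicate 1) to 0.32 for Fth1 and -0.36 to 0.082 (without LSK IL-1β replicate 2) for Ftl1, and in the interaction -1.12 to 0.14 (without LSK IL-1β replicate 2) for Slc40a1 and -0.12 (without replicate 1) to 1.68 for Cp.

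With the replicate number as a block, 4 genes were called in LK cells (Tfrc, Slc11a2 and Steap3 lower, Trf higher), and the other counts of calls among the 10 genes were as without it. The labels do not say whether same-numbered libraries share an animal. Same-numbered LSK and LK PBS libraries had deviations from group means correlated at 0.05, 0.08 and 0.34, and differently numbered ones at -0.25 to 0.14. Under IL-1β the correlation was 0.13 for the same number and -0.13 for another. Not every library correlated best with its own number, and groups of 2 or 3 libraries cannot settle whether samples were paired. For MSC no such fit could be made, since its groups share 1 number only.

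Over all genes, LSK cells had 83 calls, 905 with DESeq2, 21 with limma-voom, 869 with no filter, 1228 in the joint fit and 702 with the block. LK cells had 1199, 1844 with no filter, 489 in the joint fit and 2331 with the block. MSC had 1515, and 2354 with no filter. Between LK and LSK cells under IL-1β there were 977, 2164 with no filter, 609 in the joint fit and 2057 with the block. The interaction had 4, 332 with DESeq2, 1 with limma-voom and 398 with no filter. With each library left out these counts ranged from 3 to 480 in LSK cells, 66 to 2409 in LK cells, 38 to 3819 in MSC, 2145 to 4965 between LK and LSK cells under PBS (3980 with all), 358 to 4170 under IL-1β and 0 to 336 for the interaction.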
